A study of Mus musculus with 9 samples.

Results

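The genes described here are the chemokine ligands, the interleukins and the interleukin receptors of 3T3-L1 cells, mouse preadipocytes of fibroblast shape that a hormone mixture turns into fat-storing adipocytes. They were chosen by name, as every gene whose symbol begins with Ccl, Cxcl, Cx3cl or Il followed by a digit, which gave 94 of the 19094 genes listed. By role these were 29 chemokine ligands, 23 interleukin ligands, 37 receptor chains, 3 antagonists or binding proteins and 2 other genes that carry the prefix. RNA was sequenced at 3 stages with 3 samples each. Day 0 cells were near-confluent preadipocytes before the induction medium, which contained dexamethasone, IBMX and insulin on top of serum-containing growth medium. Day 4 cells had spent 2 days in that medium, then 2 days in insulin-containing maintenance medium. Day 8 cells had spent 4 more days in maintenance medium. All 3 groups were the same unmodified line, and by the methods cells of a stage were pooled before RNA extraction. The methods also describe the sequenced samples as mixtures of RNA from different stages, while the labels give each sample a single day, which is used here. No source states that the 3 samples of a day came from separate cultures, so p-values measure only the spread between these samples, which may be technical.

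Chemokines are small secreted proteins that draw leukocytes along a gradient by binding receptors coupled to G proteins. Interleukins signal through receptors built of several chains, a ligand-specific chain often pairing with a chain shared by several cytokines. In fat tissue, fibroblast-like precursors are a known source of chemokines such as Ccl2, and receptor antagonists and decoy chains are known to limit interleukin signals.

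Each gene had an expected count, which is an estimate of its reads, and an FPKM, which is that count scaled to gene length and sample depth. Totals ranged from 18216114 to 20452144 expected counts. A detection floor was set at 3 counts, which correspond to 0.147 to 0.165 CPM (counts scaled to the sample total). Levels below are FPKM, which allows genes to be compared with each other, and differences are log2 fold changes from edgeR's quasi-likelihood F-test on the counts of all 9 samples. A gene rose or fell where it changed more than 2-fold at an adjusted p below 0.05. The early phase compares day 4 with day 0, the late phase day 8 with day 4, and the whole process day 8 with day 0. The 3 comparisons share samples and are therefore not independent of each other.

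Mean FPKM reached 1 on at least 1 day for 40 of the 94 members. These were 15 chemokine ligands, 4 interleukin ligands, 18 receptor chains, 2 antagonists or binding proteins and 1 other gene. The members nearest to that level were Il13 at 0.900 and Il11 at 0.857 below it, and Il4i1 at 1.05 and Cxcl16 at 1.17 above it, each on its highest day. In all, 54 members had enough counts for the test, 14 of them under 1 FPKM on every day, and the other 40 members were not tested. The filter asked for enough counts in at least 3 of the 9 samples, whichever their day, so a gene can enter through a day on which it is high.

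In the early phase 11 of the 54 tested members rose, or 20.4%, where 9.77% of all 13154 tested genes rose. In the same phase 13 members fell, or 24.1%, where 7.98% of all tested genes fell. In the late phase 10 members rose and 10 fell, 18.5% each, where 4.24% of all tested genes rose and 2.81% fell. Over the whole process 8 members rose, or 14.8%, where 10.3% of all tested genes rose, and 16 fell, or 29.6%, where 7.70% of all tested genes fell. The median log2 fold change of the tested members was -0.06 in the early phase, -0.11 in the late phase and -0.38 over the whole process, while the medians of all tested genes were 0.02, -0.01 and -0.02. Requiring a mean of at least 10 counts over all 9 samples left 51 members (Cxcl9, Il13 and Il2rg dropped out). Of these, 10 rose and 13 fell in the early phase, where 9.35% and 7.67% of the genes under that filter rose and fell.

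Chemokine ligands changed mainly by falling in the early phase. Of the 18 tested, 8 fell and 2 rose from day 0 to day 4, or 44.4% and 11.1% beside 7.98% and 9.77% of all tested genes, with a median log2 fold change of -0.69. From day 4 to day 8 none of the 18 fell and 5 rose, or 27.8% beside 4.24% of all tested genes, with a median of 0.38. Over the whole process 8 fell and 2 rose, beside 7.70% and 10.3% of all tested genes, with a median of -0.09. The 8 that fell over the whole process were the 8 that had fallen by day 4: Ccl2, Ccl5, Ccl7, Ccl8, Ccl9, Cxcl1, Cxcl5 and Cxcl10.

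The summed level of the chemokine ligands hid this fall, because 1 gene, Cxcl12, made up most of it. Over all 29 ligands the sums at day 0, 4 and 8 were 732.3 ± 10.3, 684.4 ± 30.2 and 981.5 ± 36.5 FPKM (SD, n = 3). Without Cxcl12 they were 230.3 ± 18.9, 53.0 ± 1.5 and 68.4 ± 1.23 FPKM. The 3 day 0 samples lay at 210.7, 248.3 and 231.9 FPKM without Cxcl12, well apart from every later sample, the highest of which was 69.4. The share of Cxcl12 in the summed level went from 68.6 ± 2.25% to 92.3 ± 0.503% and 93.0 ± 0.416%. In RNA from a whole culture, fewer cells that express a gene and less RNA per cell cannot be told apart.

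**Figure D1:**
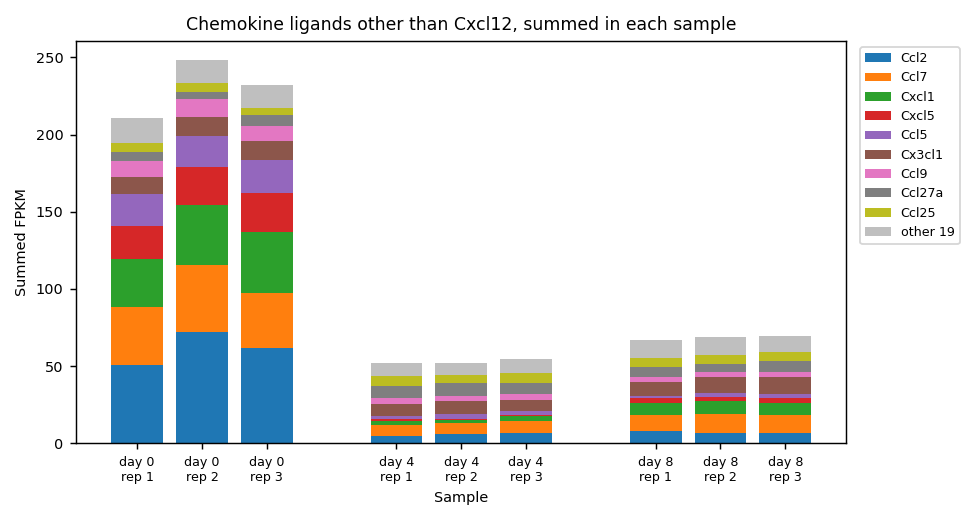
Summed FPKM of the 28 chemokine ligands other than Cxcl12 in each of the 9 samples, as stacked bars from 0, with the 9 most abundant genes coloured and the remaining 19 in grey. The 3 day 0 bars reach 210.7 to 248.3 FPKM and the later ones 52.1 to 69.4.

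Cxcl12 (gene 20315), the stromal chemokine that holds blood precursors in their niches, was the most abundant member. It stood at 510, 489 and 507 FPKM in the day 0 samples, 667, 619 and 608 at day 4, and 956, 897 and 886 at day 8. The 3 days did not overlap and the level went up at each step. The log2 fold change was 0.33 ± 0.05 (SE) in the early phase (adjusted p = 2.1e-05), 0.59 ± 0.05 in the late phase (9.9e-08) and 0.92 ± 0.05 over the whole process (1.0e-10), all below the 2-fold threshold.

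Cxcl1 and Cxcl5, which attract neutrophils through Cxcr2, fell most steeply in the early phase among the ligands at 1 FPKM or more. Ccl8 came next by its estimate, which rests on few counts at day 4. Cxcl5 (gene 20311) stood at 21.0, 24.6 and 25.5 FPKM at day 0, at 0.81, 0.54 and 0.83 at day 4, and at 3.10, 2.56 and 2.93 at day 8. In edgeR's test its early log2 fold change was -4.96 ± 0.14 (adjusted p = 3.1e-14), the late one 2.02 ± 0.18 (1.9e-07) and that over the whole process -2.94 ± 0.11 (8.8e-13). The day 8 samples lay above all day 4 samples and below all day 0 samples. Cxcl1 (gene 14825) followed the same course, with 31.6, 38.4 and 39.6 FPKM at day 0, 2.68, 2.23 and 3.12 at day 4, and 7.58, 8.56 and 8.10 at day 8. On the log2 scale its early change was -3.70 ± 0.13 (adjusted p = 2.8e-13) and the late one 1.64 ± 0.15 (1.8e-07). Cxcl2 and Cxcl3, close relatives of Cxcl1, never exceeded a day mean of 0.0167 and 0.0667 FPKM and had too few counts for the test.

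Cxcl1, Cxcl2 and Cxcl3 lie in a cluster with Cxcl15, with Cxcl1 between Cxcl15 and Cxcl2, in the RefSeq annotation of GRCm38.p6. Their promoters are printed because the same letters recur in 3 neighbours whose levels differ, beside that of Cxcl10, which also fell. Each is the 120 bases before the RefSeq start of the gene, read 5′ to 3′ on its own strand (RefSeq, GRCm38.p6), with matches to the NF-kappaB consensus in capitals.
Cxcl1, chr5:90891125-90891244, plus strand: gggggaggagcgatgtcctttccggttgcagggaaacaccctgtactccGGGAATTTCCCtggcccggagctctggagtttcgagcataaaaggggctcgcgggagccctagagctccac
Cxcl2, chr5:90903779-90903898, plus strand: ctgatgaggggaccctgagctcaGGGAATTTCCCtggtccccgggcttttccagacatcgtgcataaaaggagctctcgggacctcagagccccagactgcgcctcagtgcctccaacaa
Cxcl3, chr5:90785981-90786100, plus strand: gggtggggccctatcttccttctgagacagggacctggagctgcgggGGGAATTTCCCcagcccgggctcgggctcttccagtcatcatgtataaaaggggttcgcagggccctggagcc
Cxcl10, chr5:92348890-92349009, minus strand: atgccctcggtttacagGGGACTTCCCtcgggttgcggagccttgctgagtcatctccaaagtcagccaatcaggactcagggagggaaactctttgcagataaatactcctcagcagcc

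The capitals in Cxcl1, Cxcl2 and Cxcl3 are the same letters, 2 overlapping matches on the 2 strands, at positions -71 to -61, -97 to -87 and -73 to -63, where -1 is the last base before the start. Cxcl10 has 1 match in the printed stretch and another at -159 to -150, outside it. The consensus was searched on both strands of the 250 bases before each start, and 3.90% of 32851 such windows hold it. Of the 71 members with a window, 10 hold it in at least 1 of their windows. This is a count of genes and is not read against the share of windows. Of the 8 chemokine ligands that fell in the early phase, 4 have a window, and Cxcl1, Cxcl10 and Ccl9 among them hold a match while Ccl8 does not. The other members with a match are Cxcl2, Cxcl3, Ccl20, Il6, Il16, Il1r1 and Il2ra. Among these, Il2ra rose in both phases, Il16 and Il1r1 were not called, and the rest were not tested. Letters of the interferon response element, GAAANNGAAA, stand at -213 to -204 in Cxcl10 and in 2.98% of all windows, and Ccl19 is the only other member of the 71 that holds them. A match is a description of the letters and shows no binding.

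Ccl2, Ccl7 and Ccl8, which attract monocytes, are neighbours with Ccl11 on the chromosome in the order Ccl2, Ccl7, Ccl11, Ccl8. Ccl2 (gene 20296) stood at 50.6, 72.5 and 61.8 FPKM at day 0, at 4.69, 6.08 and 7.01 at day 4, and at 8.18, 7.02 and 6.87 at day 8. It was the most abundant chemokine ligand after Cxcl12 at day 0, and its early log2 fold change was -3.31 ± 0.14 (adjusted p = 3.9e-12) and the late one 0.36 ± 0.18 (0.11), with overlapping samples at day 4 and day 8. Ccl7 (gene 20306) went from 37.5, 43.3 and 35.4 FPKM at day 0 to 7.35, 7.05 and 7.53 at day 4 and 10.3, 11.96 and 11.5 at day 8. The early log2 fold change was -2.34 ± 0.10 (adjusted p = 2.8e-12) and the late one 0.67 ± 0.11 (1.0e-04), the latter under 2-fold.

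Ccl8 (gene 20307) was lower, at 4.51, 4.27 and 4.71 FPKM at day 0, 0.51, 0.20 and 0.31 at day 4, and 1.63, 0.71 and 0.62 at day 8. The samples of day 4 and day 8 spread widely, and replicate 1 of day 8 was the highest of them. Ccl8 fell early, with a log2 fold change of -3.61 ± 0.39 (adjusted p = 4.5e-07). Its day 4 samples held only 5, 2 and 3 counts, so the size of that fall is uncertain. The late log2 fold change of 1.55 ± 0.52 (adjusted p = 0.023) rests on single samples. Without replicate 1 of day 8 it was 0.99 (adjusted p = 0.17), without replicate 2 of day 4 it was 1.31 (0.080) and without replicate 3 of day 4 it was 1.49 (0.055).

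Ccl11 (gene 20292), eotaxin, which attracts eosinophils, rose late to above its day 0 level. It stood at 0.74, 0.78 and 0.56 FPKM at day 0, at 0.29, 0.42 and 0.67 at day 4, and at 3.20, 3.48 and 3.15 at day 8. Samples of day 0 and day 4 overlapped, and every day 8 sample was above all of them. Tested with edgeR, its early log2 fold change was -0.53 ± 0.34 (adjusted p = 0.18) and the late one 2.87 ± 0.26 (1.9e-07), and over the whole process it was 2.35 ± 0.24 (2.5e-07).

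Ccl5, Ccl9 and Ccl6 form another run of neighbours, and Ccl6 went against the other two. Ccl5 (gene 20304), which attracts T cells and monocytes, fell from 21.0, 20.01 and 21.4 FPKM at day 0 to 1.98, 3.38 and 2.67 at day 4, and stood at 1.62, 2.33 and 2.55 at day 8. Its early log2 fold change was -2.89 ± 0.17 (adjusted p = 2.7e-10) and the late one -0.26 ± 0.24 (0.41). Ccl9 (gene 20308), a ligand of Ccr1, stood at 10.3, 11.9 and 10.2 FPKM at day 0, at 3.69, 3.09 and 3.68 at day 4, and at 3.51, 3.32 and 3.54 at day 8. Both were low at day 4 and day 8 alike, with overlapping samples, and the early log2 fold change of Ccl9 was -1.56 ± 0.09 (adjusted p = 1.2e-10). Ccl6 (gene 20305), another ligand of Ccr1, rose from 1.62, 0.81 and 1.20 FPKM to 3.52, 3.55 and 3.07 at day 4 and stood at 2.13, 1.81 and 1.73 at day 8. In edgeR's test its early log2 fold change was 1.53 ± 0.20 (adjusted p = 4.4e-06) and the late one -0.79 ± 0.19 (0.0025), the latter under 2-fold.

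Cxcl10 (gene 15945), an interferon-induced ligand of Cxcr3, stood at 6.71, 5.68 and 4.49 FPKM at day 0, at 0.94, 0.53 and 1.52 at day 4, and at 2.12, 1.75 and 1.32 at day 8. All later samples lay below the day 0 samples, and those of day 4 and day 8 overlapped. On the log2 scale its early change was -2.43 ± 0.26 (adjusted p = 5.2e-07) and that over the whole process -1.59 ± 0.24 (1.9e-05). Cxcl16 (gene 66102), a membrane-bound chemokine that also takes up oxidized lipid, stood at 0.54, 0.81 and 0.78 FPKM at day 0, 0.32, 0.46 and 0.33 at day 4, and 1.25, 1.23 and 1.02 at day 8. The late log2 fold change was 1.69 ± 0.23 (adjusted p = 2.0e-05), while 16.9% of its 50-base stretches occur in transcripts of the overlapping Zmynd15. This late call was lost with limma on log2(FPKM + 1), at 0.66.

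The remaining ligands at 1 FPKM or more did not pass in any comparison. Cx3cl1, the membrane-tethered fractalkine, had mean levels of 11.7, 7.90 and 10.1 FPKM over the 3 days, with an early log2 fold change of -0.49 ± 0.09. Ccl25, a chemokine of thymus and gut, stayed between 4.79 and 6.58 FPKM in all 9 samples, and Ccl27a, a skin chemokine, between 4.53 and 8.13. The value of Ccl27a is uncertain because 45.0% of its 50-base stretches occur in near-identical copies.

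**Figure D2:**
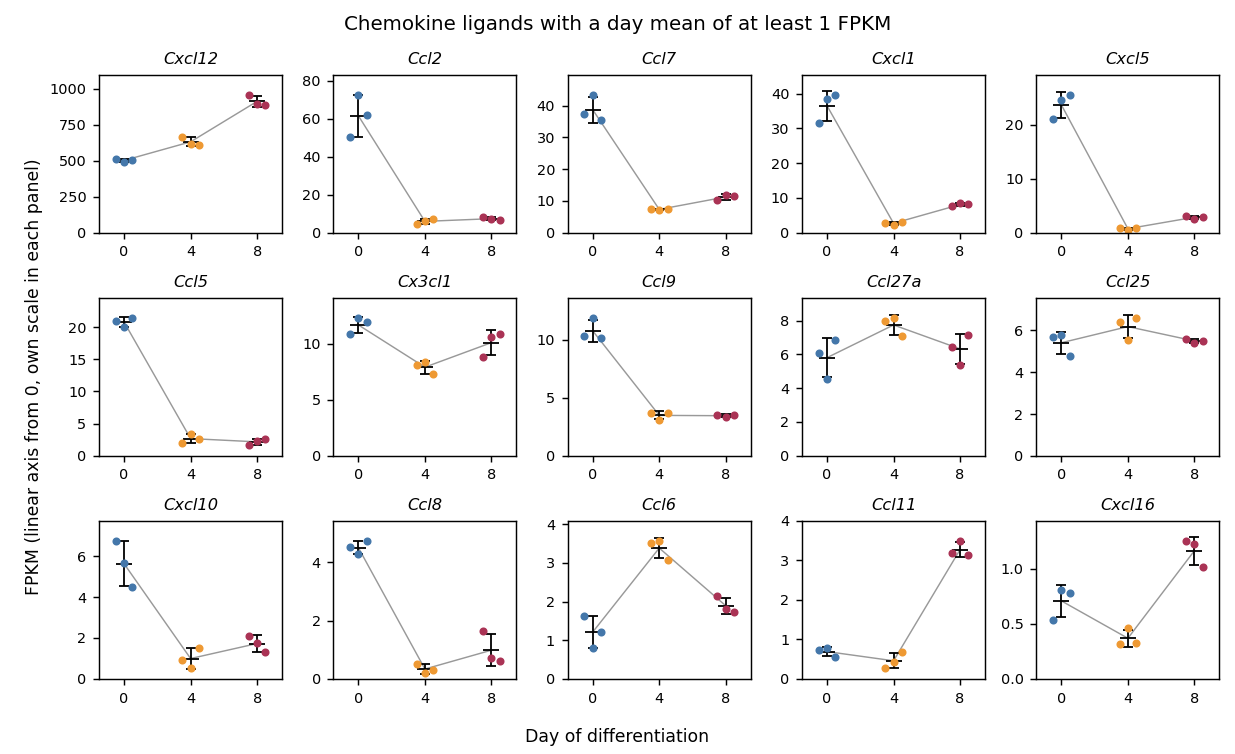
FPKM of the 15 chemokine ligands with a day mean of at least 1 FPKM, against day of differentiation. Points are the 3 samples of a day, black marks the mean and SD, and each panel has its own linear axis from 0; the 8 that fell early stand highest at day 0, Ccl11 and Cxcl16 at day 8.

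Few interleukin ligands were expressed at 1 FPKM or more. Of the 8 tested, 1 rose and 1 fell in the early phase, 12.5% each, which is close to the 9.77% and 7.98% of all tested genes. In the late phase 3 rose and 1 fell, or 37.5% and 12.5% beside 4.24% and 2.81%, and over the whole process 2 rose and 2 fell, 25.0% each beside 10.3% and 7.70%. In each comparison 1 of the rises was that of Il13, which had 0 counts at day 0, entered the test through its later days and drops out where a mean of 10 counts over all samples is required, so the shares of rises are not read against those of all genes. The 4 at 1 FPKM or more were Il1f9, Il18, Il34 and Il17d.

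Il1f9 (gene 215257), also known as interleukin 36 gamma, an epithelial alarm cytokine of the interleukin 1 family, led the interleukin ligands at day 0. It stood at 11.1, 8.87 and 11.9 FPKM at day 0, at 10.7, 8.64 and 11.3 at day 4, and at 4.35, 4.08 and 3.61 at day 8. The first 2 days overlapped and every day 8 sample was lower. Tested with edgeR, its early log2 fold change was 0.01 ± 0.12 (adjusted p = 0.97) and the late one -1.30 ± 0.13 (5.9e-07). Il1rl2, the receptor of that cytokine, had mean levels of 11.9, 8.21 and 6.50 FPKM and a log2 fold change of -0.76 ± 0.08 over the whole process, under 2-fold.

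Il17d (gene 239114), a member of the interleukin 17 family, rose late. It stood at 0.36, 0.50 and 0.68 FPKM at day 0, at 0.49, 0.65 and 0.75 at day 4, and at 1.63, 2.08 and 1.49 at day 8. Its late log2 fold change was 1.5 ± 0.27 (adjusted p = 2.6e-04) and that over the whole process 1.85 ± 0.28 (1.9e-05). Both calls of Il17d were lost with limma on log2(FPKM + 1), at 0.74 and 0.85. Il18, which induces interferon gamma in lymphocytes, had mean levels of 5.32, 4.04 and 3.62 FPKM. Il34, a ligand of the macrophage growth factor receptor Csf1r, had 2.21, 1.87 and 2.15 FPKM, and neither passed in a comparison. Csf1r itself stood at 0.233, 0.380 and 0.333 FPKM.

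Il1rn (gene 16181), the antagonist that blocks the interleukin 1 receptor without signalling, was high on day 4 only among the 3 days sampled. It stood at 1.05, 1.49 and 0.92 FPKM at day 0, at 6.88, 7.27 and 7.41 at day 4, and at 0.89, 0.80 and 0.74 at day 8. In edgeR's test its early log2 fold change was 2.72 ± 0.14 (adjusted p = 3.6e-11) and the late one -3.10 ± 0.14 (8.6e-11), the largest late fall among the members at 1 FPKM or more. Over the whole process it was -0.38 ± 0.18 (adjusted p = 0.078). Il18bp, the secreted protein that neutralizes interleukin 18, had means of 1.41, 1.44 and 0.920 FPKM and did not pass. Il1a, one of the agonists that Il1rn opposes, reached a day mean of 0.01 FPKM at most and was not tested. Il4i1, an amino acid oxidase that carries the prefix, was the other gene above the level, but 77.1% of its 50-base stretches occur in overlapping genes, so its value is uncertain.

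Receptor chains did not move together. Of the 25 tested, 7 rose and 4 fell in the early phase, or 28.0% and 16.0% beside 9.77% and 7.98% of all tested genes, with a median log2 fold change of 0.33. In the late phase 2 rose and 8 fell, or 8.0% and 32.0% beside 4.24% and 2.81%, with a median of -0.44. Over the whole process 4 rose and 6 fell, or 16.0% and 24.0% beside 10.3% and 7.70%, with a median of -0.39. The 37 chains summed to 321.6 ± 6.08, 384.4 ± 3.85 and 326.8 ± 1.05 FPKM over the 3 days. Without Il11ra1, whose level is uncertain because of near-identical copies, the sums were 232.5 ± 2.46, 256.3 ± 1.02 and 211.7 ± 3.88 FPKM, so that day 8 lay below day 0. The most abundant were Il11ra1, Il17rc and Il6st.

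A group of receptor chains was highest at day 4. Il15ra (gene 16169), which presents interleukin 15 to neighbouring cells, rose from 0.97, 0.74 and 0.62 FPKM at day 0 to 7.52, 7.06 and 8.09 at day 4, and fell to 2.81, 3.05 and 3.23 at day 8. No samples of different days overlapped. On the log2 scale its early change was 3.37 ± 0.16 (adjusted p = 1.5e-11), the late one -1.29 ± 0.13 (4.3e-07) and that over the whole process 2.08 ± 0.18 (2.5e-08). Il20rb (gene 213208), a shared chain of the receptors for interleukins 19, 20 and 24, followed with 0.71, 0.64 and 0.71 FPKM at day 0, 4.07, 4.18 and 3.46 at day 4, and 1.38, 1.26 and 1.4 at day 8. Its log2 fold change was 2.57 ± 0.14 early (adjusted p = 1.3e-10) and -1.49 ± 0.13 late (1.0e-07). Over the whole process it was 1.07 ± 0.17 (adjusted p = 2.3e-05), and this call was lost with library size alone (0.96) and with limma on log2(FPKM + 1) (0.48) and log2(FPKM + 0.1) (0.88).

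Il6ra (gene 16194), the ligand-binding chain for interleukin 6, stood at 2.77, 2.54 and 2.78 FPKM at day 0, at 8.45, 7.96 and 6.61 at day 4, and at 3.09, 3.03 and 3.00 at day 8. Its log2 fold change was 1.57 ± 0.10 early (adjusted p = 4.8e-10) and -1.29 ± 0.10 late (1.9e-08). Il6st, the signalling chain gp130 shared by the interleukin 6 family, had the reverse course, at 77.7, 70.7 and 74.8 FPKM at day 0, 39.8, 35.7 and 33.0 at day 4, and 46.7, 49.4 and 47.1 at day 8. Its early log2 fold change of -0.98 ± 0.06 (adjusted p = 8.7e-10) was just under 2-fold. Samples of different days did not overlap for either chain. Il6 itself was low, with a highest day mean of 0.607 FPKM, and was not tested.

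Il17rc (gene 171095), a chain of the receptor for interleukins 17A and 17F, was the second most abundant chain at day 4. It rose from 32.4, 31.3 and 30.6 FPKM at day 0 to 71.5, 80.3 and 84.5 at day 4, and stood at 49.6, 53.5 and 57.8 at day 8. The 3 days did not overlap, with a log2 fold change of 1.39 ± 0.07 early (adjusted p = 2.9e-11) and -0.51 ± 0.07 late (1.0e-05), the latter under 2-fold. Its partner Il17ra had means of 10.7, 11 and 7.51 FPKM, and Il17rd, a related chain, had 4.70, 2.38 and 2.91 FPKM, with no call for either. Il17re, the neighbour of Il17rc and a chain of the interleukin 17C receptor, rose early too, with a log2 fold change of 3.39 ± 0.51 (adjusted p = 2.1e-05), but from 0.0467 to 0.493 FPKM and from only 3, 3 and 1 counts at day 0.

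Il2ra (gene 16184), the alpha chain for interleukin 2 and the chromosomal neighbour of Il15ra, rose in both phases. It stood at 0.20, 0.18 and 0.21 FPKM at day 0, at 0.37, 0.51 and 0.47 at day 4, and at 2.52, 3.34 and 2.61 at day 8. The early log2 fold change was 1.24 ± 0.24 (adjusted p = 2.4e-04), the late one 2.71 ± 0.16 (1.1e-09) and that over the whole process 3.94 ± 0.18 (1.2e-11), the largest rise over the whole process among members at 1 FPKM or more. The early call was lost on the FPKM scale with limma, at 0.88 with a pseudocount of 0.1 and 0.28 with 1. Il2rb, the chain shared by interleukins 2 and 15, had means of 2.07, 1.82 and 1.45 FPKM and was not called. Il2rg, the common gamma chain, fell in the late phase with a log2 fold change of -1.74 ± 0.53 (adjusted p = 0.014), from 0.257 to 0.0733 FPKM. Its counts were 14, 16 and 17 at day 0, 9, 10 and 6 at day 4, and 3, 1 and 3 at day 8. The day 8 counts were at or under the floor of 3 counts. Il2rg thus entered the test through day 0 and drops out where a mean of 10 counts over all samples is required. In addition, 27.5% of its 50-base stretches occur in an overlapping gene.

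Il1rl1 (gene 17082), the receptor for interleukin 33 also known as ST2, fell most among the receptor chains at 1 FPKM or more. It stood at 5.17, 10.4 and 6.62 FPKM at day 0, at 0.40, 0.52 and 0.50 at day 4, and at 0.33, 0.36 and 0.26 at day 8. The day 0 samples were spread, replicate 2 being the highest, and all lay well above the rest. Tested with edgeR, its early log2 fold change was -3.64 ± 0.22 (adjusted p = 3.8e-10) and that over the whole process -4.40 ± 0.24 (1.2e-10). Il33, its ligand and an alarm cytokine of stromal cells, stayed under 1 FPKM and went from 0.75, 0.73 and 0.89 to 0.14, 0.04 and 0.12 and back to 0.55, 0.53 and 0.47. Its log2 fold change was -2.92 ± 0.33 early (adjusted p = 8.0e-07) and 2.41 ± 0.35 late (3.8e-05). The day 4 samples of Il33 held only 7, 2 and 6 counts, so the size of either change is uncertain.

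Il1rl1 lies in a run of 6 receptor genes in the order Il1r2, Il1r1, Il1rl2, Il1rl1, Il18r1 and Il18rap, and these neighbours took different courses. Il1r1, the signalling receptor for interleukin 1, had means of 19.0, 28.0 and 28.6 FPKM and an early log2 fold change of 0.63 ± 0.05 (adjusted p = 6.0e-09), under 2-fold. Il18rap, the accessory chain for interleukin 18, had means of 0.733, 0.113 and 0.0133 FPKM and fell early with a log2 fold change of -2.62 ± 0.35 (adjusted p = 6.3e-06). It also fell late (adjusted p = 0.0060), but its day 8 samples held 2, 1 and 1 counts, under the floor of 3 counts. The size of the late fall is therefore not given. Il1r2, a decoy receptor, and Il18r1 reached day means of 0.370 and 0.0767 FPKM at most and were not tested. Il1rap, the accessory chain that several of these receptors share, stood at 23.2, 23.5 and 16.7 FPKM without a call.

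Il13ra1 and Il4ra, which together form a receptor for interleukins 4 and 13, had different courses. Il13ra1 (gene 16164) fell from 5.22, 5.79 and 5.65 FPKM at day 0 to 0.88, 1.20 and 0.97 at day 4 and rose to 2.40, 2.37 and 2.22 at day 8. Its log2 fold change was -2.38 ± 0.11 early (adjusted p = 1.2e-11), 1.24 ± 0.12 late (3.9e-07) and -1.14 ± 0.10 over the whole process (2.4e-08). The late and whole-process calls were lost with limma on log2(FPKM + 1), at 0.73 and -0.98. Il4ra (gene 16190) stood at 8.15, 8.06 and 9.32 FPKM at day 0, at 10.8, 9.95 and 9.86 at day 4, and at 4.99, 4.37 and 4.78 at day 8. It fell late, with a log2 fold change of -1.07 ± 0.07 (adjusted p = 6.7e-09), and this call was lost with limma on log2(FPKM + 1), at -0.97. Il13 had 0 counts in the 3 day 0 samples and stood at 0.12, 0.29 and 0.30 FPKM at day 4 and at 0.83, 0.91 and 0.96 at day 8. Against 3 counts in each day 0 sample, its CPM was at least 1.85-fold higher at day 4 and at least 7.07-fold higher at day 8.

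Il3ra (gene 16188), the alpha chain for interleukin 3, stood at 10.5, 9.07 and 9.64 FPKM at day 0, at 11.7, 12.1 and 12.1 at day 4, and at 6.72, 5.09 and 5.39 at day 8. Its late log2 fold change of -1.01 ± 0.10 (adjusted p = 7.7e-07) lay on the 2-fold threshold. It was -0.99 with DESeq2, -0.97 without replicate 2 of day 4, and -0.93 and -0.95 without replicates 2 and 3 of day 8. The call was lost in those fits and also with RLE factors and limma on log2(FPKM + 1), 6 alternatives in all. Il11ra1, the interleukin 11 receptor, had the highest level of all chains at 89.1, 128.1 and 115.1 FPKM, but 46.3% of its 50-base stretches occur in near-identical copies, so its level is uncertain. Il10rb, a chain shared by the interleukin 10 family, had 16.9, 20.7 and 21.6 FPKM and was not called.

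**Figure D3:**
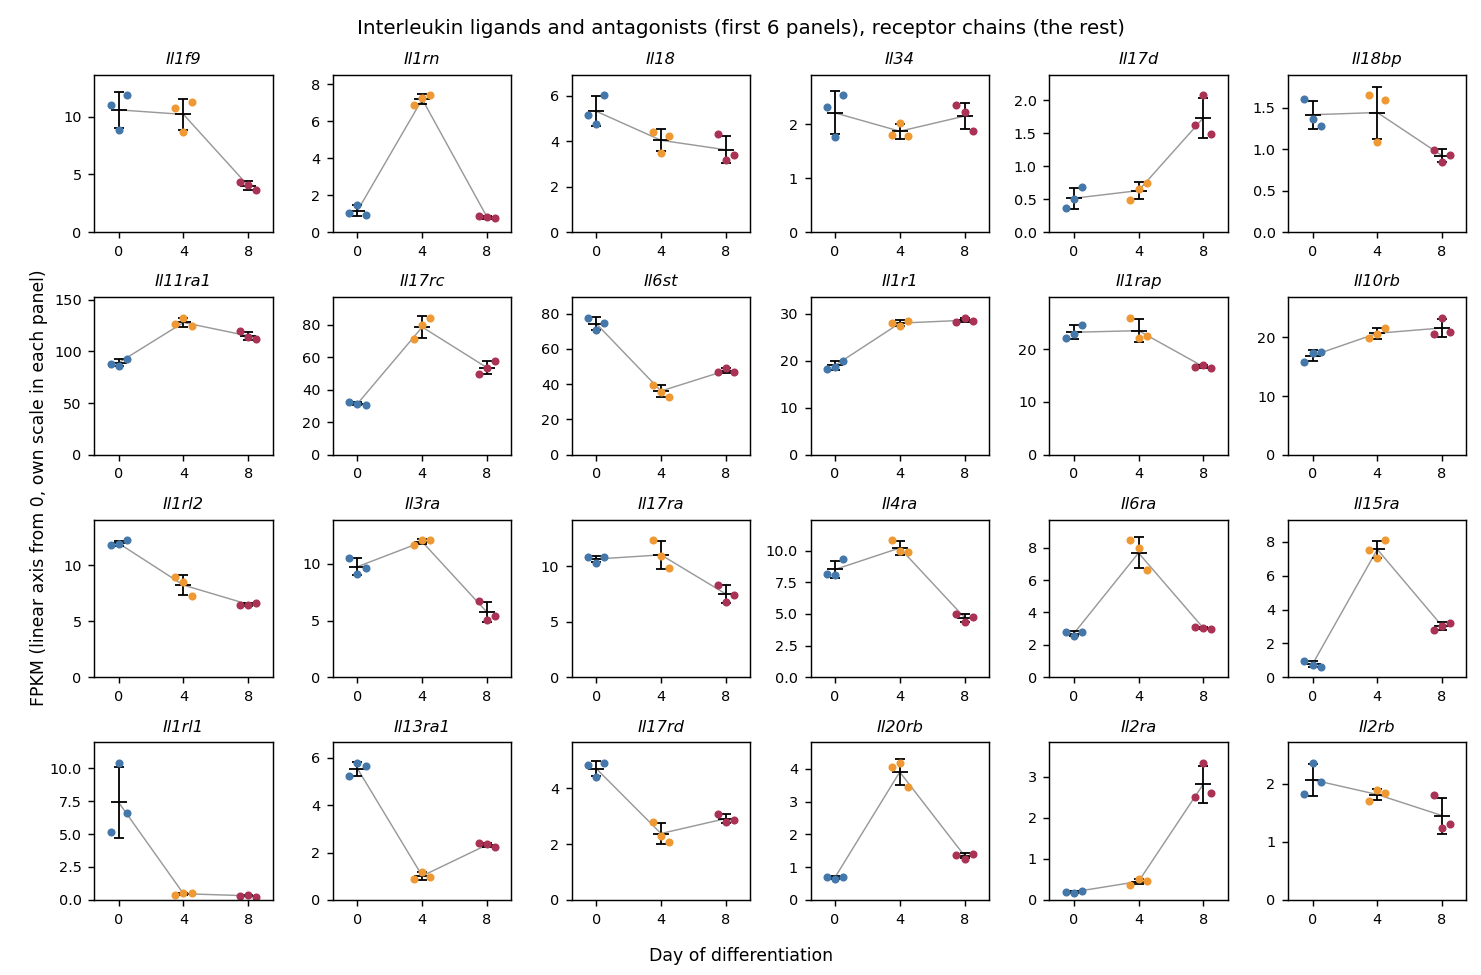
FPKM of 4 interleukin ligands and 2 antagonists or binding proteins (first row) and 18 receptor chains (other rows) against day of differentiation. Points are the 3 samples of a day, black marks the mean and SD, and each panel has its own linear axis from 0; Il1rn, Il15ra, Il20rb and Il6ra peak at day 4, Il2ra and Il17d at day 8.

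**Figure D4:**
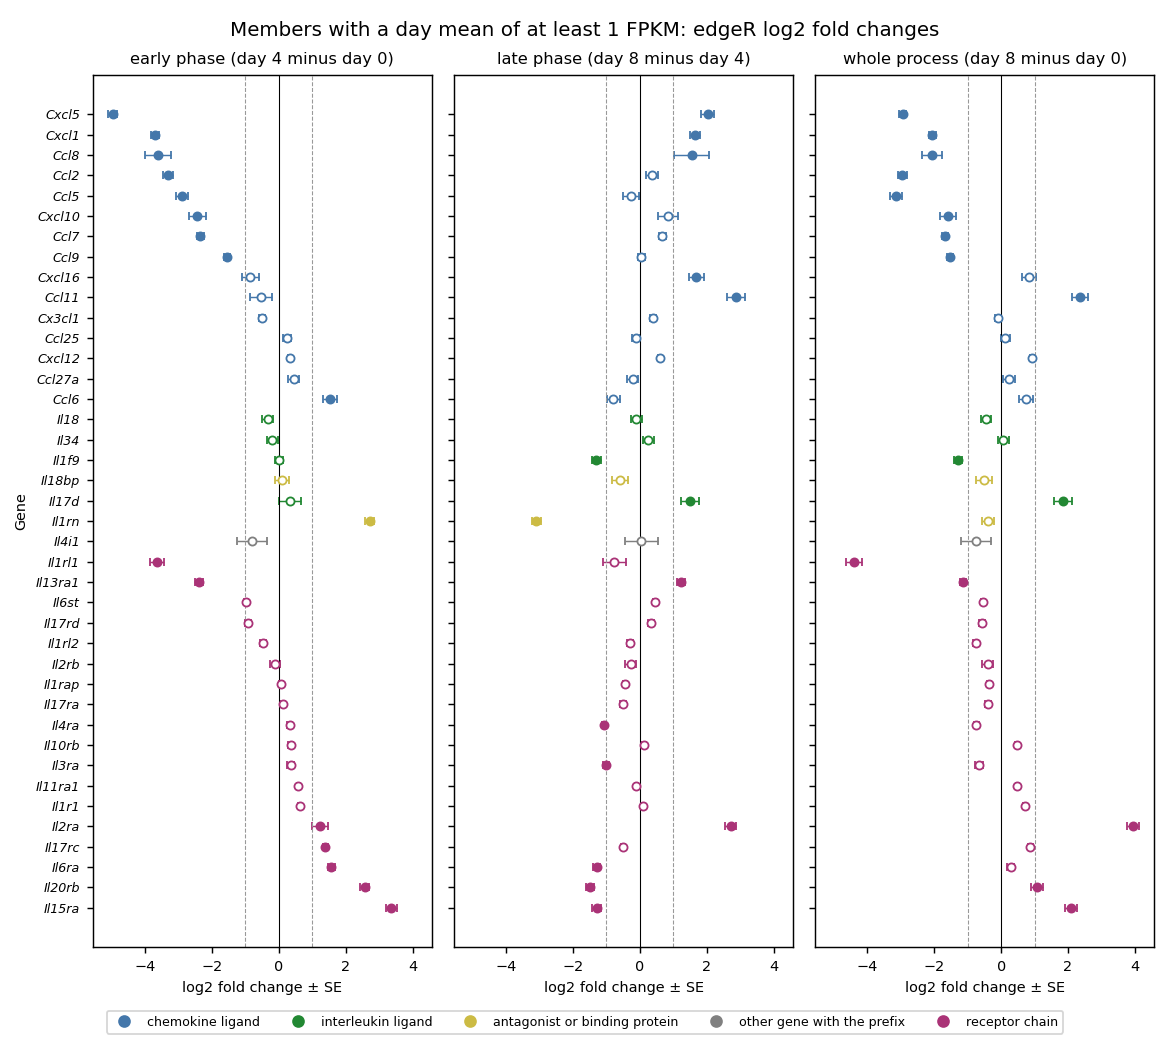
Log2 fold changes with standard errors of the 40 members with a day mean of at least 1 FPKM in the early phase, the late phase and the whole process. Filled points changed more than 2-fold (dashed lines) at an adjusted p below 0.05, and the 8 chemokine ligands that fell early lie between -4.96 and -1.56.

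Members under 1 FPKM on every day numbered 54, of which 14 had enough counts for the test. Of those 14, 10 were called in at least 1 comparison: Cxcl13, Il11, Il13, Il33, Il12rb1, Il17re, Il18rap, Il2rg, Il31ra and Il5ra. The share of all tested genes called in at least 1 comparison is not given here, so this count is not read against all genes. Some of the 10, such as Il13 and Il2rg, entered the test through the days on which they were high. Cxcl13, which attracts B cells, rose early with a log2 fold change of 1.66 ± 0.36 (adjusted p = 6.3e-04), at 0.21, 0.24 and 0.30 FPKM at day 0 and 0.78, 0.60 and 0.93 at day 4. Il31ra, the partner of the oncostatin M receptor for interleukin 31, rose early by 1.83 ± 0.37 (adjusted p = 3.5e-04) and fell late by 1.53 on the log2 scale (0.0025). Il12rb1, a chain of the interleukin 12 receptor, fell early with a log2 fold change of -2.07 ± 0.41 (adjusted p = 2.9e-04). Il11 and Il5ra were called only over the whole process, with log2 fold changes of -1.07 ± 0.27 (adjusted p = 0.0022) and -1.39 ± 0.30 (6.2e-04). These 10 genes never exceeded 98 counts in a sample, and their values are accordingly less precise.

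Other genes of the same pathways were taken from fixed lists, whose counts stand beside 9.77% of all tested genes that rose and 7.98% that fell in the early phase, 4.24% and 2.81% in the late phase, and 10.3% and 7.70% over the whole process. Of the chemokine receptors and scavengers on the list, 18 were found in the data and 6 were tested. Of these 6, 1 rose and 1 fell in the early phase, 1 rose in the late phase and 1 rose over the whole process. Ackr3, the scavenging receptor of Cxcl12, stood at 9.65, 10.9 and 11.2 FPKM at day 0, at 3.36, 3.01 and 3.00 at day 4, and at 8.11, 7.42 and 8.07 at day 8. Its log2 fold change was -1.69 ± 0.09 early (adjusted p = 1.1e-10) and 1.37 ± 0.10 late (8.5e-09). The gene that rose early was Ackr4, a scavenger of other chemokines, named here after its values were seen, at 0.0967, 0.670 and 0.930 FPKM. Cxcr2, the receptor for Cxcl1 and Cxcl5, had means of 1.48, 1.5 and 1.04 FPKM. Cx3cr1, the receptor for Cx3cl1, reached a day mean of 0.153 FPKM at most. Cxcr4, another receptor of Cxcl12, and Cxcr3 were looked for and are not listed under those symbols in any sample.

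Of 8 tested genes for other gp130 cytokines and receptors, 3 rose and 1 fell in the early phase, beside 9.77% and 7.98% of all tested genes. None was called in the late phase, and 2 rose and 1 fell over the whole process, beside 10.3% and 7.70%. Cntfr rose early and Lif fell early, both under 1 FPKM and named after their values were seen. Lifr, which pairs with gp130, was at 7.5, 13.8 and 8.21 FPKM, with an early log2 fold change of 1.05 ± 0.07 (adjusted p = 9.2e-10). In the list of other short-chain cytokines and receptors 2 of 4 tested genes fell early, 1 late and 3 over the whole process. Csf2rb2 (early and whole process) and Csf2rb (late and whole process), named after their values were seen, stayed under 1 FPKM. Tslp, an epithelial alarm cytokine, was at 1.93, 0.323 and 0.517 FPKM, with an early log2 fold change of -2.48 ± 0.33 (adjusted p = 4.6e-06).

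Of 24 tested JAK-STAT genes, 1 rose and 2 fell in the early phase, where 9.77% of all tested genes rose and 7.98% fell. In the late phase 1 of them fell and over the whole process 3 fell, beside 2.81% and 7.70% of all tested genes, with median log2 fold changes of -0.20, -0.08 and -0.16. Stat2, which carries interferon signals, fell early and went from 37.9 ± 9.84 to 7.82 ± 0.522 and 7.18 ± 0.372 FPKM, with an early log2 fold change of -2.21 ± 0.13 (adjusted p = 3.2e-10). Ptpn6, a phosphatase that damps cytokine receptors, rose early by 1.31 ± 0.14 on the log2 scale (adjusted p = 4.7e-07). Socs3, a feedback inhibitor of gp130 signalling, had a late log2 fold change of -1.01 ± 0.14 (adjusted p = 2.0e-05), and Socs2, another feedback inhibitor, had -1.02 ± 0.05 over the whole process (4.9e-11). Both lay close to the 2-fold threshold. The Socs3 samples were uneven at day 4, at 23.9, 22.7 and 34.1 FPKM, against 13.8, 11.7 and 13.2 at day 8.

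Of 29 tested interleukin 1 and NF-kappaB genes, 2 rose and 2 fell in the early phase, 1 fell in the late phase and 4 fell over the whole process, beside the same shares of all tested genes, with median log2 fold changes of -0.10, -0.01 and 0.05. Nfkbia, the inhibitor that holds NF-kappaB in the cytoplasm, had means of 20.1 ± 1.32, 58.3 ± 3.15 and 28.2 ± 1.1 FPKM over the 3 days. It rose early with a log2 fold change of 1.60 ± 0.06 (adjusted p = 1.3e-12). Its relative Nfkbie was at 7.38, 2.62 and 2.93 FPKM and fell early with -1.43 ± 0.11 (adjusted p = 4.6e-09). Casp1 rose early and Rel fell early, both under 1 FPKM, and Irak3 fell over the whole process, also under 1 FPKM; these 3 were named after their values were seen. Nfkbiz, a nuclear relative induced by interleukin 1, fell over the whole process with -1.45 ± 0.10 (adjusted p = 2.9e-09).

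The labelled cell type was checked against marker lists. The summed level of 9 adipocyte markers lay at 143.8 to 148.8 FPKM in the day 0 samples, was 5737.0 to 8161.6 by day 4 and reached 8269.9 to 9013.7 by day 8, and Adipoq, adiponectin, went from 0.503 to 466.6 and 819.8 FPKM. All 7 fibroblast and preadipocyte markers were present in every sample, with sums of 7012.4 to 7265.5 FPKM in day 0 samples, 5014.8 to 5492.4 in day 4 samples and 6886.2 to 7093.4 in day 8 samples. The 7 did not move together. Dlk1, a preadipocyte marker and the only one of them called in the early or late phase, fell early (log2 fold change -2.13 ± 0.06, adjusted p = 3.4e-14) and rose late (1.24 ± 0.06, 9.3e-11), with means of 827.6, 180.8 and 415.3 FPKM. Pdgfrb, Thy1, Col1a1 and Col1a2 were also lower at day 4 and higher again at day 8, each by under 2-fold. Pdgfra went the other way (0.84 ± 0.05, adjusted p = 4.3e-10, and -0.59 ± 0.05, 1.2e-07), and Vim was lower in both phases (-0.24 ± 0.05, adjusted p = 4.8e-04, and -0.48 ± 0.05, 9.7e-07), also by under 2-fold. Ccl8, Cxcl1, Cxcl5, Il33 and Il13ra1 were called in the same directions as Dlk1 in both phases, and the part of preadipocyte content in this was not tested. Of 16 macrophage and myeloid symbols 15 were found, and they summed to 9.34 to 11 FPKM in day 0 samples, 9.31 to 12 in day 4 samples and 12.4 to 14.2 in day 8 samples. The leukocyte marker Ptprc did not exceed a day mean of 0.0167 FPKM, and Adgre1 and Itgam did not exceed 0.01. The most abundant myeloid marker was Cd14 at day 0, with a mean of 4.48 FPKM, and S100a8 later, which had means of 0.247, 4.28 and 7.12 FPKM and rose early (log2 fold change 4.15 ± 0.42, adjusted p = 2.2e-07), from 1, 3 and 1 counts at day 0, so that the size of that rise is uncertain. Lyz2 fell early (-2.10 ± 0.32, adjusted p = 2.1e-05) and rose late (1.25 ± 0.36, 0.0093), with means of 1.80, 0.40 and 0.93 FPKM. Aif1 fell early (-1.36 ± 0.33, adjusted p = 0.0016), with means of 1.69, 0.62 and 0.583 FPKM. Of the 5 endothelial markers only Vwf and Pecam1 had enough counts for the test, and they moved differently. Vwf fell early (-2.95 ± 0.25, adjusted p = 2.5e-08), from 0.47 to 0.0567 FPKM, while Pecam1 had an early log2 fold change of 0.09 ± 0.40 (adjusted p = 0.85) and rose late, 2.01-fold (adjusted p = 0.027), with means of 0.13, 0.133 and 0.257 FPKM. The lymphocyte and endothelial sums stayed between 0.260 and 0.610 and between 0.240 and 1.08 FPKM, the endothelial one being highest in the 3 day 0 samples, and the part of other cells in the results was not tested.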

How the data were processed

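The RNA-seq samples were 3T3-L1 cells of 3 days (0, 4 and 8; 3 samples each), with day and replicate number taken from the sample titles. The methods state that the authors mapped clean reads with HISAT/Bowtie2 and quantified genes with RSEM. Per the submitters' processing notes CASAVA 1.4 and Bowtie2 were used. The genome build is not given in the sources used here. The labels' extraction text names a tissue and a library kit that differ from the cell line and the Illumina platform of the methods. The authors deposited RSEM expected counts, which are not normalized (29.8% not whole), and FPKM, scaled by the authors to gene length and depth. The depth was 18216114 to 20452144 expected counts per sample, and the floor of 3 counts covers counting error only, since amplified reads are not independent molecules. Symbols that had become dates were restored for 26 genes, and 19040 of 19094 IDs matched the RefSeq gene table.

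Expected counts were rounded and fitted in R 4.3.3 with edgeR 4.0.16 (glmQLFit, glmQLFTest, TMM factors, filterByExpr by day, all 9 samples, 1 coefficient per day). P-values were adjusted over 13154 genes by the Benjamini-Hochberg method, and a call needed more than 2-fold change with an adjusted p below 0.05. The methods name an exact test, which was kept as an alternative. The standard error is the log2 fold change divided by the square root of F. Replicates differed by more than sampling noise, with a chi-square per gene of 2.40 to 10.7 over 9 pairs, so none were merged. The steps were tested on simulated data. The alternatives were RLE and upper-quartile factors, library size alone, DESeq2 1.42.0 (Wald test), the exact test of edgeR, limma 3.58.1 on log2(FPKM + 1) and log2(FPKM + 0.1), other filters, other thresholds, a separate fit of 2 days, a replicate block and leaving out each sample.

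Members with a mean FPKM of at least 1 on any day are named, those called with the value in every sample, plus up to 10 called members under that level and the called genes of pathway lists, of which 2 are counted but not reported here. Members and lists were chosen with earlier results of these data known. To judge shared reads, GENCODE vM21 transcripts were cut into 50-base stretches, and a gene with over 20% of them found in other genes was treated as uncertain. Promoter windows (RefSeq, GRCm38.p6) were found for 71 of 94 members.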

Additional observations from a re-analysis of the deposited data

How the results depend on the processing

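Among the 40 members at 1 FPKM or more, 48 pairs of a member and a comparison were called. Of these, 38 were called under every alternative that gave a value, 10 lost the call under at least 1, and 0 reversed. All 10 lost it with limma on log2(FPKM + 1), which compresses low values by construction. There the late log2 fold changes were 0.54 for Ccl8, 0.66 for Cxcl16, 0.74 for Il17d, 0.73 for Il13ra1, -0.95 for Il3ra and -0.97 for Il4ra, the early one of Il2ra was 0.28, and those over the whole process were 0.85 for Il17d, -0.98 for Il13ra1 and 0.48 for Il20rb. With it the tested members gave 6 early rises in place of 11, 4 late rises and 5 late falls in place of 10 each, and 3 rises and 10 falls over the whole process in place of 8 and 16. At least 10 counts in every sample, which removes genes that are low on 1 day, left 7 rises and 9 falls early, 5 and 7 late, and 3 and 11 over the whole process, in place of 11 and 13, 10 and 10, and 8 and 16. Without the fold change threshold there were 19 early rises and 19 early falls, 16 late rises and 19 late falls, and 16 rises and 25 falls over the whole process. Leaving out 1 sample gave 11 to 12 early rises, 13 to 17 early falls, 9 to 11 late rises, 9 to 10 late falls, 8 to 10 rises and 16 to 17 falls over the whole process, and 39 to 41 members at 1 FPKM or more. Of 72 pairs without a call, 6 were called under at least 1 alternative, among them the early phase of Il6st. The deviations of samples with the same replicate number had a mean correlation of 0.0307, against -0.0154 for different numbers, and 0 of 9 pairs were over 0.1, so the numbers were not taken as pairs. The best partner carried the same number for 6 of 9 samples, which is a hint from the data and not from the design. With the replicate block the counts were 11 rises and 13 falls early, 10 and 10 late, and 8 and 16 over the whole process. A gene at or below 3 counts is at or under the detection floor set here. Among the tested genes named above, this bears on the members Ccl8, Il4i1, Il13, Il33, Il12rb1, Il17re, Il18rap and Il2rg. It also bears on Ackr4, Casp1, Cntfr, Csf2rb2, Lif and S100a8. Each of these genes was at 3 counts or fewer in at least 1 sample, and genes that were not tested are left out of this list.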
